A study of Rattus norvegicus with 6 samples.

Results

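The complement system was examined through 8 genes, the activators C3, Cfb, C2, C1s and C1r and the regulators Cfi, Serping1 and Cd55, out of 21857 gene symbols counted by RNA-seq in neonatal rat cardiac fibroblasts (NRCFs). The members were looked up by symbol, and they had been chosen with the difference between the 2 groups already known. Their levels and fold changes between the groups are therefore given as a description, with no test. NRCFs are primary cells taken from rat hearts within 3 days of birth, and such cultures can hold other cardiac cell types. All were transfected, either with a plasmid carrying rat FTO cDNA, an eraser of the N6-methyladenosine mark on RNA, or with the empty plasmid (Vector), and the study's methods do not mention any sorting of transfected cells. There were 3 libraries labelled FTO overexpression and 3 labelled WT, which is the Vector group. The design text names Sprague-Dawley rats, whereas the strain label of every library reads "Noway". Nothing in the labels says whether the 3 libraries of a group came from separate cultures or animals, so p-values measure only the spread between these libraries.

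Complement is a cascade of secreted proteins that marks surfaces for removal. In the classical pathway, C1q binds the target and activates the proteases C1r and C1s, which cut C4 and C2 into a convertase. In the alternative pathway, factor B (Cfb) pairs with deposited C3 to form a second convertase, and both convertases cut C3, the central protein of the cascade. Regulators act at each step. C1 inhibitor (Serping1) blocks C1r and C1s, CD55 speeds the decay of convertases on the cell surface, and factor I (Cfi) cuts C3b and C4b with the help of other proteins. The liver makes most of the plasma complement, and fibroblasts and macrophages make several components locally.

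Total counts were 13178952 to 17857999 per library, so that 3 counts, taken as the detection floor, were worth 0.168 to 0.227 CPM (counts scaled to library size with the TMM factors of edgeR). Fto itself did not pass the test. Its level was 88.3 ± 1.20 CPM in Vector cells and 92.3 ± 1.32 CPM in the libraries labelled FTO (SD, n = 3 each), with a log2 fold change of 0.06 (adjusted p-value 0.239, edgeR quasi-likelihood test). The 95% confidence interval of the fold was 0.976 to 1.12. The CPM of Fto did not overlap, at 87.4 to 89.6 in the Vector libraries and 90.8 to 93.2 in those labelled FTO. Each difference described here is therefore between the libraries labelled FTO and Vector, without an increase of Fto counts that passed the test. The study reports that it checked FTO overexpression after plasmid transfection by qRT-PCR and at the protein level. All 8 fibroblast markers on the list used here, among them Col1a1, Col3a1 and Pdgfra, were detected in both groups. Hepatocyte markers (Alb, Apoa1, Ttr, Fgb and Serpina1) summed to 0.201 to 0.585 CPM in the Vector libraries and 0.391 to 0.604 CPM in the libraries labelled FTO, with Alb, Fgb and Serpina1 at or under the floor in all 6. Lymphocyte markers were at or under the floor for all 4 genes.

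Of the 8 members, 7 were higher in every library labelled FTO than in any Vector library, and Cfi was the exception. All 8 passed the filter on low counts. Among all 12941 genes that passed it, 70.3% did not overlap between the groups, and 35.5% did not overlap with the higher values in the libraries labelled FTO. As this contrast chose the members, nothing is read from that count. The median log2 fold change over the 8 members was 3.55, with a range from 0.23 (Cfi) to 11.51 (Cfb), next to a median of 0.00 over all tested genes. The 8 genes took 0.0980% to 0.0984% of all counts in the Vector libraries and 1.04% to 1.11% in the libraries labelled FTO.

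**Figure D1:**
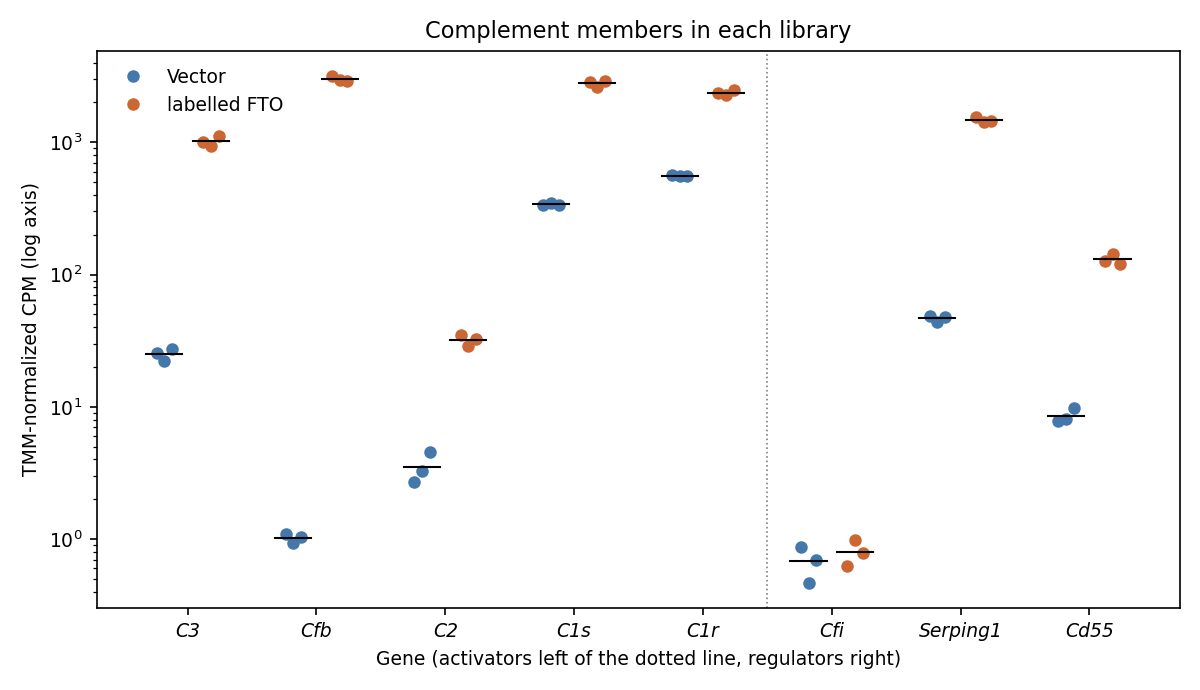
TMM-normalized CPM of the 8 complement members in each of the 6 libraries on a log axis, with points for single libraries (blue, Vector; orange, labelled FTO) and a black line for the mean of 3. The groups are separate for 7 genes, from C1r (560 against 2374 CPM) to Cfb (1.03 against 3004 CPM), and overlap for Cfi.

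In the alternative pathway, both members were far higher in the libraries labelled FTO. C3, which every complement pathway cleaves, was at 25.5, 22.3 and 27.3 CPM in Vector replicates 1, 2 and 3. The libraries labelled FTO had 1011, 937 and 1105 CPM, in the same order of replicates. The highest Vector library thus lay far under the lowest library labelled FTO, and the fitted log2 fold change was 5.35 (SE 0.0776), a 40.7-fold ratio of the means. Cfb, the protease subunit of the alternative convertase, had only 15, 14 and 15 counts in the 3 Vector libraries, that is 1.10, 0.939 and 1.04 CPM. The libraries labelled FTO had 3163, 2946 and 2904 CPM. Among the 12941 tested genes, 2 had a larger fitted increase than the log2 fold change of 11.51 (SE 0.0814) of Cfb, and 117 had a larger one than C3. With so few Vector counts, this SE of Cfb understates the uncertainty of its change. Within a library, Cfb had 3.81 to 4.31 counts per 100 counts of C3 in the Vector group and 263 to 314 per 100 in the libraries labelled FTO. This ratio was thus higher in each library labelled FTO than in any Vector library, with few Cfb counts behind the Vector values.

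The classical pathway proteases were higher in the libraries labelled FTO too, with smaller fold changes than C3 and Cfb. C1r, the protease that C1q activates first, was at 568, 554 and 558 CPM in Vector replicates 1, 2 and 3 and at 2358, 2272 and 2493 CPM in the libraries labelled FTO. Its fitted log2 fold change of 2.08 (SE 0.0431) was the smallest among the 5 activators. C1s, which C1r activates and which then cuts C4 and C2, was at 335, 348 and 335 CPM in the Vector libraries and at 2829, 2618 and 2912 CPM in those labelled FTO. Its fitted log2 fold change was 3.04 (SE 0.0477). Since the ratios of the groups were unequal for the 2 genes, C1s went from 59.0, 62.9 and 60.0 counts per 100 counts of C1r in the Vector libraries to 120.0, 115 and 117 in those labelled FTO. Gene lengths cancel in the change of this ratio but not in its level, so it does not give the ratio of the proteins or of the transcripts in a cell.

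C2, the protease subunit of the classical convertase and a relative of Cfb, had 37, 49 and 66 counts in the Vector libraries, which is 2.71, 3.29 and 4.57 CPM. In the libraries labelled FTO it was at 35.1, 28.9 and 32.6 CPM. The 3 Vector libraries differed among themselves by a coefficient of variation of 27.1%, against 1.28% to 10.1% for the other 4 activators. The fitted log2 fold change was 3.19 (SE 0.141), and it ran from 3.04 without Vector replicate 1 to 3.42 without Vector replicate 3. Cfb had 22.7 to 40.5 counts per 100 counts of C2 in the Vector libraries and 8903 to 10187 per 100 in the libraries labelled FTO.

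RefSeq promoter sequences were at hand for 4 of the 8 members, C3, C1r, Cd55 and Cfi. The windows of C3 and C1r, activators with different fold changes, and of Cd55, a surface regulator, are shown because all 3 genes were higher in the libraries labelled FTO. Each gives the 250 bases before the annotated start on the strand of the gene, 5′ to 3′, in the GRCr8 build of RefSeq (chr9:2201340-2201589, minus strand, for C3; chr4:159098763-159099012, plus strand, for C1r; chr13:44438102-44438351, minus strand, for Cd55), and capitals mark a match to the C/EBP motif TTGCNNAA on either strand.
C3: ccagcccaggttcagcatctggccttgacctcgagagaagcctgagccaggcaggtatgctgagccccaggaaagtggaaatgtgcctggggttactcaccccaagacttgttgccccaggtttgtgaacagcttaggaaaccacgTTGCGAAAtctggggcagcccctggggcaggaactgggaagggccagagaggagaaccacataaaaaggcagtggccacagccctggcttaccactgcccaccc
C1r: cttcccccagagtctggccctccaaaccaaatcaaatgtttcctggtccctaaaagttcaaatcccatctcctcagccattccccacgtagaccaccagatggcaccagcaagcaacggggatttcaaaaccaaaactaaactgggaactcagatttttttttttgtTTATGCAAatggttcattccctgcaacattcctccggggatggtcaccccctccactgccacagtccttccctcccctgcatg
Cd55: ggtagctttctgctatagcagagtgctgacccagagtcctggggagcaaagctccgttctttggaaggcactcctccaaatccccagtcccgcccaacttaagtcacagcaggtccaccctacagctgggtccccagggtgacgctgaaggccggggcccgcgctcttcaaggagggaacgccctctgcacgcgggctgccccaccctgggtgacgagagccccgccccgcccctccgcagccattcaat
The match in C3 lies on the plus strand of the printed sequence and begins 104 bases before the start, and that in C1r lies on the opposite strand and begins 83 bases before it. Over windows of 300 bases that run 50 bases past the start, 2 of the 4 members held this motif, as did 10.6% of all 33469 promoters in the table. Neither the Cd55 nor the Cfi window held it. No window of the 4 members held the interferon-response core (GAAA, then NN, then GAAA, held by 3.92% of all promoters), the STAT motif TTCNNNGAA (8.87%), the AP-1 motif TGANTCA (7.33%) or the NF-κB consensus (4.18%), each searched on both strands. The searches describe letters in a short window and say nothing about whether a factor bound there.

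The regulators among the members were taken separately, and 2 of the 3 were higher in the libraries labelled FTO. Serping1, which encodes the inhibitor of C1r and C1s, was at 48.2, 44.0 and 47.5 CPM in Vector replicates 1, 2 and 3. It was at 1554, 1415 and 1449 CPM in the libraries labelled FTO, with a fitted log2 fold change of 4.98 (SE 0.0559). Set against the proteases it inhibits, Serping1 had 5.34, 4.88 and 5.32 counts per 100 counts of C1r and C1s together in the Vector libraries and 30.0, 28.9 and 26.8 per 100 in those labelled FTO. Serping1 counts were thus higher relative to those of C1r and C1s in each of the 3 libraries labelled FTO. These counts do not give the ratio of the proteins or of the transcripts in a cell.

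Cd55, which encodes the decay-accelerating factor of the cell surface, was at 7.83, 8.05 and 9.83 CPM in the Vector libraries. It was at 127, 142 and 121 CPM in the libraries labelled FTO, with a fitted log2 fold change of 3.92 (SE 0.0899). Against C3 the direction was the other way. Cd55 had 30.7, 36.1 and 36.0 counts per 100 counts of C3 in the Vector libraries and 12.5, 15.2 and 10.9 per 100 in the libraries labelled FTO.

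Cfi, the protease that inactivates C3b, was close to the limit of detection in both groups. It had 12, 7 and 10 counts in Vector replicates 1, 2 and 3 and 9, 13 and 14 counts in those labelled FTO. The CPM overlapped, from 0.470 to 0.878 in the Vector group and from 0.631 to 0.982 in the libraries labelled FTO. The fitted log2 fold change was 0.23 (SE 0.379), and the 95% confidence interval of the fold was 0.669 to 2.06. Its fitted change was the smallest of the 8 members, and that of C1r was the next at 2.08. Relative to C3, Cfi went from 2.11 to 3.45 counts per 100 counts of C3 in the Vector libraries to 0.0625 to 0.105 per 100 in the libraries labelled FTO.

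Summed over the 5 activators, the CPM was 929 ± 3.48 in the Vector group and 9215 ± 358 in the libraries labelled FTO, a ratio of 9.92. Summed over the 3 regulators it was 55.8 ± 2.91 and 1603 ± 68.2, a ratio of 28.7 (SD, n = 3). Both sums rest on few genes. C1r and C1s gave most counts of the first sum in Vector cells, and Serping1 gave most counts of the second in both groups.

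**Figure D2:**
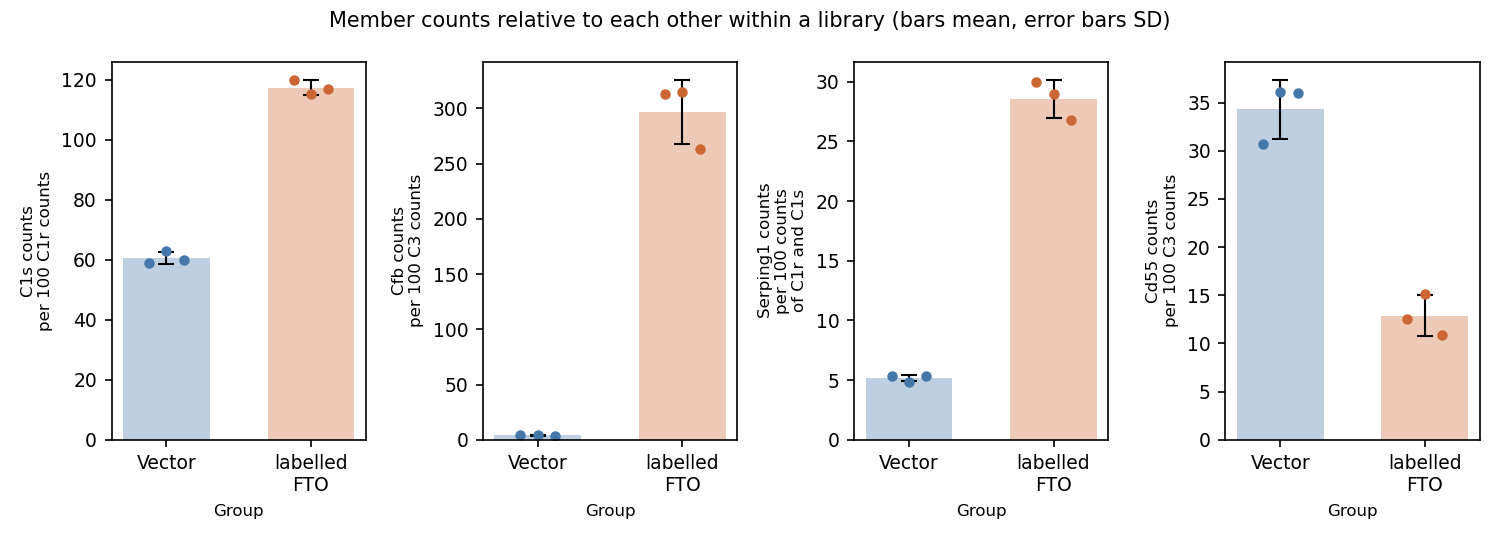
Counts of a member per 100 counts of another member of the same library, with bars for the mean of 3 libraries, error bars for the SD and points for single libraries. C1s against C1r (60.7 to 117), Cfb against C3 (4.11 to 297) and Serping1 against C1r and C1s (5.18 to 28.6) were higher in the libraries labelled FTO, and Cd55 against C3 (34.3 to 12.9) was lower.

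Several members are neighbours on their chromosomes, and the genes beside them were examined to see how far the differences extended. The 2 nearest gene symbols listed in the files on each side, some of them at 0 counts in every library, were taken by the gene order of the RefSeq table, a choice made after the data were seen. Of 24 such genes that are no members, 15 were tested, with a median log2 fold change of 0.16, and 7 were higher and 2 lower (edgeR, adjusted p-value under 0.05), while over all tested genes 33.2% were higher and 32.8% lower. Around C2 and Cfb, which lie side by side, the flanking genes were much closer to no change. Ehmt2 and Zbtb12 on the one side changed by -0.18 (adjusted p-value 0.00275) and 0.11 (adjusted p-value 0.478), and Nelfe and Dxo on the other by 0.13 (adjusted p-value 0.143) and 0.37 (adjusted p-value 0.0261). Zbtb12 overlaps C2 in that table, and as the use of strand in the counting is not given, reads of the 2 genes could be mixed. It was at 7.78 and 8.33 CPM.

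On the far side of C1r lies C1rl, a C1r-like protease gene, which rose from 13.0 ± 1.14 CPM to 41.7 ± 0.940 CPM (log2 fold change 1.69, SE 0.0806, adjusted p-value 5.1e-11). Beyond C1s, Lpcat3 rose by 0.20 (adjusted p-value 0.00112) and Emg1 was at 0.13 (adjusted p-value 0.0875). Around C3, Cd70 and Tnfsf14 on one side were at or under the floor in all libraries, Gpr108 on the other rose by 0.44 (adjusted p-value 7.0e-05) and Trip10 was at 0.05 (adjusted p-value 0.542). At Serping1 all 3 tested neighbours rose. Ube2l6, an enzyme that conjugates the interferon-induced modifier ISG15, went from 12.5 ± 1.20 CPM to 83.6 ± 6.62 CPM (log2 fold change 2.74, adjusted p-value 2.4e-13). Ypel4 rose by 1.70 (adjusted p-value 3.1e-07) and Clp1 by 0.60 (adjusted p-value 8.6e-05). Beside Cd55 the only tested gene was Cxcr4, a chemokine receptor, which fell from 9.06 ± 0.290 CPM to 2.80 ± 0.593 CPM (log2 fold change -1.68, adjusted p-value 2.5e-07). Beside Cfi, Gar1 and Pla2g12a were at 0.08 and 0.16 (adjusted p-values 0.454 and 0.307).

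**Figure D3:**
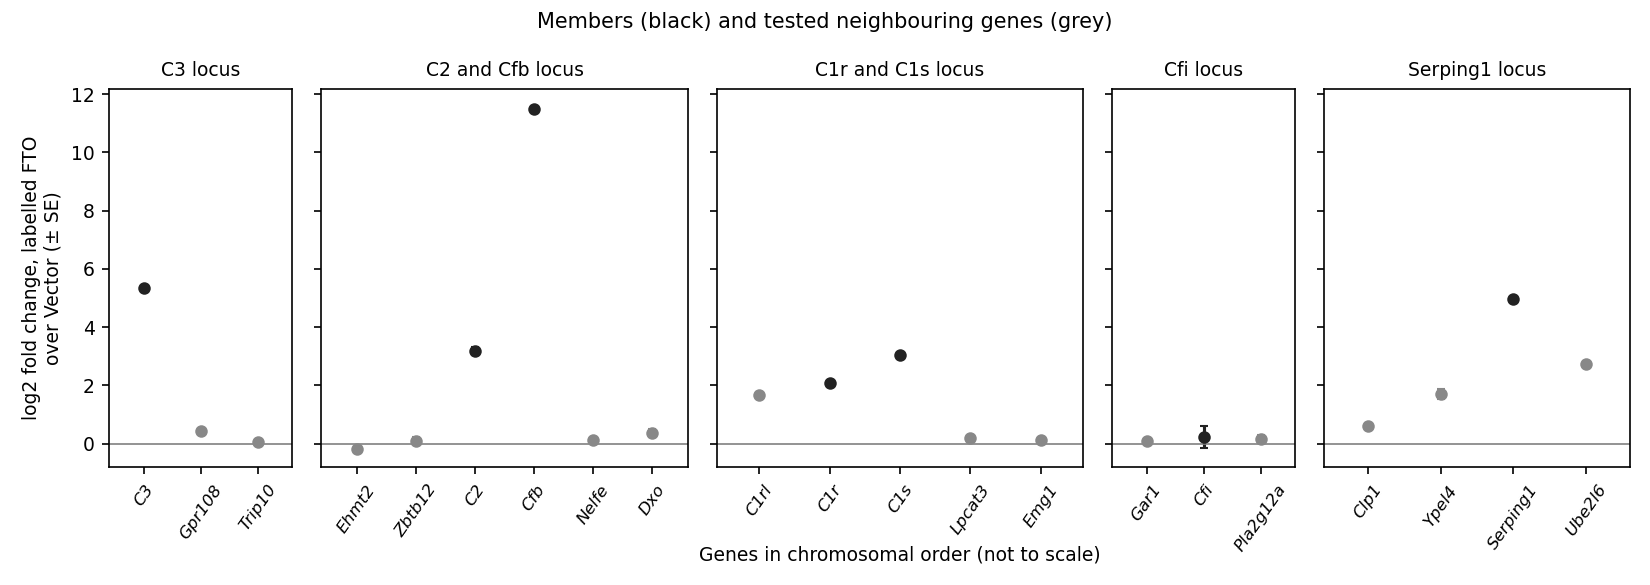
Fitted log2 fold change (libraries labelled FTO over Vector, ± SE) of members (black) and of tested neighbouring genes (grey) in chromosomal order, not to scale. C2 (3.19) and Cfb (11.51) stand between neighbours at -0.18 to 0.37, whereas the neighbours of Serping1 lie at 0.60 to 2.74. The Cd55 locus is not drawn, since only Cxcr4 was tested beside it.

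The rest of the pathway was read from a list of 44 other complement genes chosen by function. Of these, 43 were counted and 28 passed the filter on low counts. With edgeR and an adjusted p-value under 0.05, 9 were higher and 11 lower, which is 32.1% and 39.3% of the 28, next to 33.2% and 32.8% of all tested genes. Together 71.4% passed, against 65.9% of all genes. The list had a median of -0.36 on the log2 scale. The genes of this list thus went in both directions, in shares near those of all genes.

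**Figure D4:**
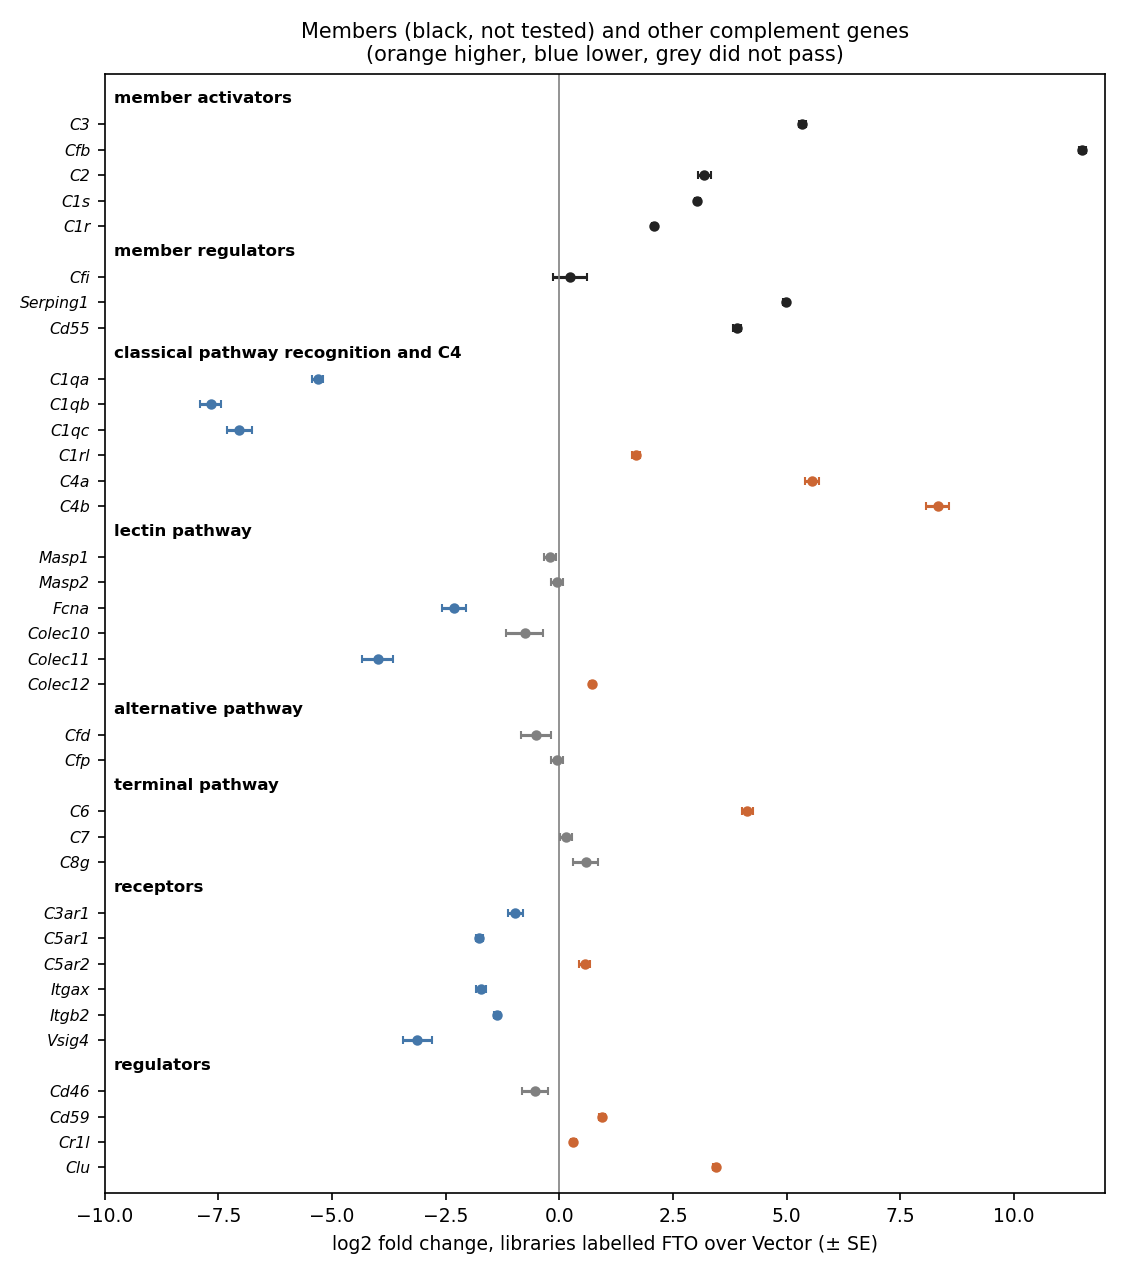
Fitted log2 fold change (libraries labelled FTO over Vector, ± SE) of the 8 members (black, no test) and of other complement genes tested, by role (orange, higher; blue, lower; grey, did not pass). C4a, C4b, C6 and Clu lie to the right with most members, and C1q genes and most receptors to the left.

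C4, the substrate of C1s and the partner of C2, rose. Rats carry the near-identical genes C4a and C4b, whose reads the counting may have split, so their sum is the safer value. It was 9, 13 and 19 counts in Vector replicates 1, 2 and 3 and 1319, 1083 and 1835 counts in the libraries labelled FTO, or 0.949 ± 0.335 against 92.3 ± 10.3 CPM. Singly, C4a was at a log2 fold change of 5.56 (edgeR, adjusted p-value 8.6e-14). C4b, with 0, 4 and 3 counts in Vector, was at 8.32, a fitted value that depends on the prior count, with an adjusted p-value of 2.4e-13.

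The recognition chains of C1 went the opposite way from C1r and C1s. C1qa had 822, 810 and 790 counts in the Vector libraries and 23, 21 and 20 in those labelled FTO, with a log2 fold change of -5.31 (SE 0.120, edgeR adjusted p-value 5.6e-15). C1qb went from 274, 279 and 294 counts to 1, 1 and 2, and C1qc from 247, 204 and 218 to 2, 1 and 2, which are at least 87.0-fold and 68.9-fold lower in CPM against the floor of 3 counts per library. C1q is made mainly by macrophages, and 5 of the 6 tested complement receptors, which are known from the same cells, fell as well. These were Vsig4 (-3.13), C5ar1 (-1.77), Itgax (-1.73), Itgb2 (-1.36) and C3ar1 (-0.97), with adjusted p-values from 1.5e-11 to 6.8e-05. The sixth, C5ar2, rose by 0.56 (adjusted p-value 8.6e-04). Of 11 macrophage markers, 10 fell and Adgre1 rose, while 32.8% of all tested genes were lower and 33.2% higher (edgeR, adjusted p-value under 0.05). The summed level of these markers was 860 to 873 CPM in the Vector libraries and 262 to 297 CPM in the libraries labelled FTO. On the log2 scale the markers ran from -3.96 (Csf1r) to 2.22 (Adgre1), and each C1q chain fell further than any of them. The part of macrophages in these results was not tested, and in bulk RNA fewer macrophages and less RNA per macrophage cannot be told apart.

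Among soluble and surface regulators outside the members, Clu, Cd59 and Cr1l rose in the edgeR test. Clu, which encodes clusterin, an inhibitor of the membrane attack complex, rose from 78.7 ± 2.31 CPM to 854 ± 47.4 CPM (log2 fold change 3.44, SE 0.0515, adjusted p-value 4.8e-17). Cd59, which blocks the same complex on the cell surface, rose by 0.94 (adjusted p-value 2.0e-09). Cr1l, the rodent surface regulator known as Crry, rose by 0.31 (adjusted p-value 4.2e-05). Cd46 did not pass (-0.54, adjusted p-value 0.108), except without Vector replicate 3, where it was at -0.76 (adjusted p-value 0.0334).

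In the terminal pathway, C6 was the only one of 3 tested genes to pass. It rose from 48, 53 and 39 counts in the Vector libraries to 850, 663 and 1102 in those labelled FTO, with a log2 fold change of 4.13 (SE 0.121, edgeR adjusted p-value 1.2e-13). C7 was at 258 ± 0.868 and 286 ± 82.7 CPM (log2 fold change 0.15, adjusted p-value 0.343), and the libraries labelled FTO disagreed. Without FTO replicate 2 its change was 0.36 (adjusted p-value 1.2e-05), and without FTO replicate 3 it was -0.06 (adjusted p-value 0.584). C8g did not pass (0.58, adjusted p-value 0.0803), but did without FTO replicate 2 (0.76, adjusted p-value 0.0239). The other 4 genes did not pass the filter on low counts. C9 had 1, 0 and 0 counts in the Vector libraries and 2, 10 and 12 in those labelled FTO, which did not overlap but were not tested. C5 had at most 3 counts in any library, and C8a and C8b had none.

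The remaining alternative and lectin pathway genes were lower or did not pass, with 1 exception. Factor D (Cfd), the protease that cuts Cfb, had 36, 39 and 14 counts in the Vector libraries and 19, 17 and 30 in those labelled FTO (-0.51, adjusted p-value 0.191), and it passed without Vector replicate 3 (-0.86, adjusted p-value 0.0143). Properdin (Cfp), which stabilizes the alternative convertase, was at 7.39 ± 0.590 and 7.13 ± 0.352 CPM (-0.05, adjusted p-value 0.756). The lectin-pathway proteases Masp1 (-0.20, adjusted p-value 0.194) and Masp2 (-0.05, adjusted p-value 0.758) did not pass, nor did Colec10 (-0.76, adjusted p-value 0.111). Among the lectins that recognise sugars, Colec11 (-3.99, adjusted p-value 6.9e-08) and Fcna (-2.32, adjusted p-value 1.2e-06) fell on the log2 scale, while Colec12 rose by 0.72 (adjusted p-value 3.0e-09). Mbl1 and Mbl2 had no count in any library.

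Other cell type markers also differed between the groups, without a common direction. Their counts stand next to 33.2% higher and 32.8% lower among all tested genes (edgeR, adjusted p-value under 0.05). Cardiomyocyte markers summed to 1270 to 1302 CPM in the Vector libraries and 1903 to 1973 CPM in the libraries labelled FTO, with 4 of 5 genes higher and 1 lower. Epicardial markers summed to 25.5 to 27.4 and 109 to 121 CPM, with 2 of 4 higher and 1 lower, and endothelial markers to 19.3 to 19.8 and 43.3 to 45.0 CPM, with 3 of 4 tested higher. Mural markers summed to 303 to 318 and 102 to 114 CPM, with 1 of 3 tested higher and 2 lower. Fibroblast markers summed to 36849 to 37674 and 18488 to 19609 CPM, with 4 of 8 higher and 4 lower, the highest change being that of Dcn (6.90) and the lowest that of Col3a1 (-1.68). Their part in the differences of the complement genes was not tested.

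Lastly, genes outside complement with the most similar pattern over the 6 libraries were sought. The measure was the Euclidean distance of log2(CPM + 0.5) after the Vector mean was subtracted. Nearest to C3 were Ptx3 (distance 0.255), a secreted pattern-recognition protein that binds C1q, Csf2rb (0.291), the shared receptor chain of GM-CSF, IL-3 and IL-5, and Gbp5 (0.311), an interferon-induced GTPase. Ptx3 was at 40.4 ± 2.26 and 1644 ± 49.1 CPM. Nearest to Cfb were Pla2g2a (0.448), a secreted phospholipase, Cxcl6 (0.855), a neutrophil chemokine, and Lcn2 (1.14), an iron-sequestering acute-phase protein, which was at 2.18 ± 0.751 and 3483 ± 335 CPM. Cxcl6 had 0, 0 and 2 counts in the Vector libraries, under the floor of 3 counts, so its distance to Cfb depends on the added 0.5. Its fitted log2 fold change was 13.80, against 11.51 for Cfb. With only 2 groups, such distances reflect mainly the size of the difference between them.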

How the data were processed

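RNA-seq libraries of 3 Vector and 3 FTO-labelled NRCF samples were analysed. The files the authors deposited hold unnormalized read counts by gene symbol. The submitters' processing notes name Trimmomatic and the build rn6, while aligner, counting program, annotation and strand setting are not given in the sources used here. Genes were kept with filterByExpr (minimum count 10) and compared with the quasi-likelihood test of edgeR 4.0.16 in R 4.3.3 after TMM scaling, two-sided, with Benjamini-Hochberg adjustment over all 12941 genes. SEs were obtained as the log2 fold change divided by the root of F. For large changes with few counts in a group, as for Cfb and C1qa, this value is smaller than counting error alone. The SE bars in the figures and the fold intervals of such genes are too narrow as well. The procedure was tested on simulated counts, where 191 of 198 changed genes among 12814 were recovered with 13 false calls. In these data 65.9% of tested genes passed, a far larger share, so the simulation does not show how the procedure performs here. Within-group replicates differed by more than sampling noise (chi-square per degree of freedom 1.57 to 8.40). Members and lists were chosen with earlier results of these data known. Named genes are the 8 members, the measured genes of the wider list (1 of which enters its totals but is not reported here), Fto, and the 3 genes nearest to C3 and to Cfb, and flanking genes were added after the data were seen. Floors describe counting error alone, since no molecular identifiers are mentioned, and fold intervals describe the spread of these libraries. Alternatives were DESeq2 1.42.0, limma-voom (limma 3.58.1), other scalings and filters, the replicate number as a block, and leaving out each library. Levels per length were not compared between genes, because no transcript lengths were used here. Itgam is not analysed here.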

Additional observations from a re-analysis of the deposited data

How the results depend on the processing

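Each of the 8 members kept its direction under all 13 alternatives, and each value moved by less than 1 SD of its replicates. Cfb ranged from 11.44 to 11.55 on the log2 scale, C3 from 5.27 to 5.41 and Cfi from 0.02 to 0.45. The median over the members was 3.55 and ran from 3.45 (without Vector replicate 1) to 3.72 (without Vector replicate 3) when single libraries were left out. The median over the wider list was -0.20 without a filter on low counts, against -0.36, and -0.50 to -0.21 when single libraries were left out. Its number of genes that passed was 20 to 22, and the number over all genes was 7795 (DESeq2) to 9009 (no filter). Among the single genes followed, 43 with 559 values in all, 7 values changed. Leaving out single libraries, C7 was lowest at -0.0614 (FTO replicate 3 left out) and highest at 0.357 (FTO replicate 2 left out), Cfp from -0.0976 to 0.0131 (without Vector replicate 1) and Masp2 from -0.104 to 0.0406 (without Vector replicate 2), and the causes were not tested. Replicate numbers showed no sign of pairing the samples. Deviations from the group means of same-numbered libraries correlated at 0.00352, -0.0789 and 0.0346 across genes, against -0.115 to 0.109 for libraries of unlike number. With 3 libraries per group, these values cannot exclude a pairing. In a fit with a replicate block, 8399 of all genes passed and 20 of the wider list, and the median over the members was 3.55. Fto ranged from 0.05 to 0.08 (adjusted p-values 0.182 to 0.450). The order of the members per length was not run. Depth limits Cfi in both groups, Cfb, C2, C4a and C4b in Vector cells, and the C1q chains in the libraries labelled FTO.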
